A study of Homo sapiens with 8 samples.

Results

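Peaks of the DNA methyltransferase DNMT1 were set against peaks of the co-repressor DAXX in PC3 cells in which DAXX was knocked down (K/D). The members are all 42876 DAXX peaks and all 595 DNMT1 peaks of the K/D lists on chromosomes 1 to 22, X and Y, together 43471 of 249711 peaks in the 6 lists of the series. A peak was called shared when it had at least 1 bp in common with a peak of the other list, and all others are DNMT1-only or DAXX-only. This gave 203 shared pairs, 392 DNMT1-only peaks and 42673 DAXX-only peaks.

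ChIP-Seq was carried out in PC3, a cell line from a bone metastasis of prostate cancer, with goat polyclonal antibodies to DAXX and to DNMT1 and an antibody labelled DMHH3(Lys4), to histone H3 marked at Lys4 and written H3(Lys4) here. The K/D cells carry a stable DAXX shRNA and were kept in puromycin, and the cells they are set against are labelled WT, although the series text also speaks of a control shRNA. Cells were crosslinked in 2 steps. The level of DAXX itself was not measured by these lists, and the DAXX antibody still gave 42876 peaks in K/D cells, against 59761 in WT cells. Each antibody and each input gave 1 library per cell line, 8 in all and 1 per group, and none of the intervals below covers biological variation. Both K/D lists were called against the same K/D input library, and peaks are not replicates of a condition.

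DAXX is a histone chaperone found in PML bodies and on chromatin, where it works with ATRX and with other proteins that repress transcription, DNMT1 among them. DNMT1 copies the methylation of CpG dinucleotides onto the new DNA strand after replication. AP-1, a dimer of FOS and JUN proteins, binds enhancers of genes for growth and invasion.

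The DAXX list was far the richer. The K/D DNMT1 library held 12050101 tags, of which 0.0663% lay in its peaks, and the K/D DAXX library 18210051 tags, of which 6.83% lay in peaks. A DNMT1 peak held 13.3 tags on average and a DAXX peak 29.0 tags, where the lowest tag numbers allowed were 9 and 10. The comparison with input removed 74.8% of the putative DNMT1 peaks and 48.8% of the putative DAXX peaks. A DNMT1-only peak is therefore a place where no DAXX peak was called, and a DAXX-only peak one where no DNMT1 peak was called. Neither is shown to be empty.

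The sequences of the first shared and the first DNMT1-only peaks in deposited order show what the peaks look like. They are the plus strand of hg19, leaving out untranslated regions and 1 chromosome. Capitals mark the AP-1 motif (TGACTCA or TGAGTCA), the nuclear receptor half-site (TGACCTC or TGACCTT) and the heptamer ACAGTCA, each on either strand, so that ACAGTCA appears as TGACTGT where it lies on the minus strand. The heptamer differs from the AP-1 motif in its 5′ part and was added after the 6-mers described below had been seen. The first 4 shared peaks hold 1 of these motifs among them, the heptamer in SIPA1L2.
chr1:232564989-232565109 (intron of SIPA1L2): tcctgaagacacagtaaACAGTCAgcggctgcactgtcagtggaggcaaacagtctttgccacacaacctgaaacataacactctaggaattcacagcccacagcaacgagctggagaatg
chr10:75984053-75984173 (intron of ADK): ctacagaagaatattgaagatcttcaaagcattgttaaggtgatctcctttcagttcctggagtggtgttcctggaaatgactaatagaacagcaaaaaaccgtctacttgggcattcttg
chr3:64136697-64136817 (intron of PRICKLE2): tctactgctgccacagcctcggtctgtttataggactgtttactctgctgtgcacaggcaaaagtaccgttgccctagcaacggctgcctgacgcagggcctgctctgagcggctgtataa
chr14:38110407-38110527 (intron of TTC6): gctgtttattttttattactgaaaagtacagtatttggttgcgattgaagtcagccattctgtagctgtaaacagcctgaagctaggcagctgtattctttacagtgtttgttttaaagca
The first 4 DNMT1-only peaks hold 2 AP-1 motifs, in ARID5B and near THEM4.
chr10:63836813-63836933 (intron of ARID5B): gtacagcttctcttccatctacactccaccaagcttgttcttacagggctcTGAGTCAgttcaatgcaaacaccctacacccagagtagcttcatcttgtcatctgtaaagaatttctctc
chr1:151913952-151914072 (intergenic, nearest gene THEM4): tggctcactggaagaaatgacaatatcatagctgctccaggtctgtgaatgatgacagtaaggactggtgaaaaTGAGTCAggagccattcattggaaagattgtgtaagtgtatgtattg
chr14:75725895-75726015 (intergenic, nearest gene FOS): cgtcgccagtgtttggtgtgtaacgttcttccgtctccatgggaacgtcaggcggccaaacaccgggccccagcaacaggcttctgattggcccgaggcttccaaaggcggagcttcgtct
chr1:205157417-205157537 (intron of DSTYK): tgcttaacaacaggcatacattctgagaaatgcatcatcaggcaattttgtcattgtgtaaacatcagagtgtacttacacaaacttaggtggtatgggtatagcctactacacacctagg
The first 3 shared peaks with an AP-1 motif inside the 121 bp of the DNMT1 peak are given next. They were chosen for that motif.
chr19:50117416-50117536 (intron of PRR12): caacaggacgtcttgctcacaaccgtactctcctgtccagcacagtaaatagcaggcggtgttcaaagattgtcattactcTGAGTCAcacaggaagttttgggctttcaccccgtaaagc
chr18:51549995-51550115 (intergenic, nearest gene MBD2): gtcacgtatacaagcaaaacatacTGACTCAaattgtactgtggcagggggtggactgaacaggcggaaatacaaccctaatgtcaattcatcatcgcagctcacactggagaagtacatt
chr1:218550744-218550864 (intron of TGFB2): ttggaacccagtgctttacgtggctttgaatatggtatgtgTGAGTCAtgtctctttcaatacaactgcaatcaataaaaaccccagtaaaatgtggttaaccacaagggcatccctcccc
The first 3 DNMT1-only peaks that have the heptamer inside the peak and that were also called for DNMT1 in WT cells follow. The GIPR peak holds 3 copies.
chr10:32226005-32226125 (intergenic, nearest gene ARHGAP12): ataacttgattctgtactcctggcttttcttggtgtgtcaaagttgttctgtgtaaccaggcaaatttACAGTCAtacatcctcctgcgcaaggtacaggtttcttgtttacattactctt
chr10:69266425-69266545 (intron of CTNNA3): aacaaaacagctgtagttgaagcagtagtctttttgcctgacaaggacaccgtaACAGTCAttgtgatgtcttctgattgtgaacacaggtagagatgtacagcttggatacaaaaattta
chr19:46171027-46171147 (promoter of GIPR): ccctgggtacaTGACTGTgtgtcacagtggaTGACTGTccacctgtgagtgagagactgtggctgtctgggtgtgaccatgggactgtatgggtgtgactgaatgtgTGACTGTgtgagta

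The first question was how much of each list was shared. Among 595 DNMT1 peaks, 203 had a DAXX partner, which is 34.1% (95% interval 30.3 to 38.1%, exact Clopper-Pearson, as for all shares below, covering counting error only). The same 203 pairs were 0.473% (0.411 to 0.543%) of the DAXX list. The pairing was one to one. The DAXX list covers 0.256% of the sequenced genome.

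Sharing was more frequent near the start of the DAXX list. The lists are read here from their first peak onwards, since HOMER writes strong peaks first. Cut into 10 equal parts, the DAXX list had 55 of 4288 peaks shared in its first part (1.28%, 0.968 to 1.67%) and 6 of 4288 in its last (0.140%, 0.0514 to 0.304%). Shared DAXX peaks had a median place of 12594, against 21488 for DAXX-only peaks. In 5 equal parts of the DNMT1 list, from first to last, 32.8%, 45.4%, 32.8%, 30.3% and 29.4% of the peaks were shared. The intervals of these 5 shares overlap.

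**Figure D1:**
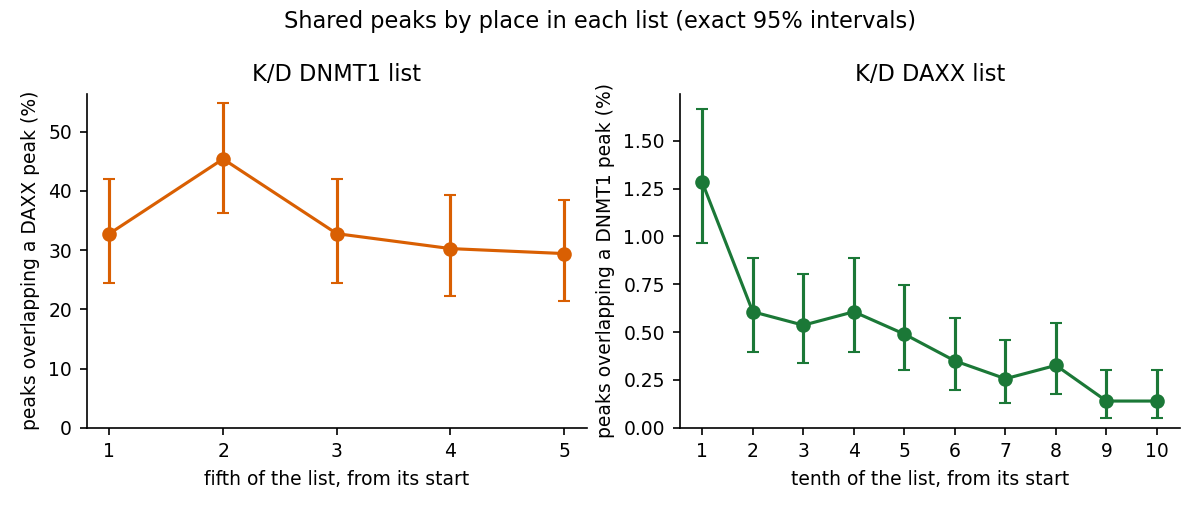
Share of peaks with a partner in the other list (y axis, percent) by place in the list (x axis), for 5 equal parts of the K/D DNMT1 list on the left and 10 of the K/D DAXX list on the right; bars are exact 95% intervals. The DNMT1 parts lie between 29.4% and 45.4% with overlapping intervals, while the DAXX parts have 1.28% at the start of the list and 0.140% at its end.

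The 2 centres of a shared pair lay a median of 44 bp apart, with quartiles of 22 and 81 bp. The DNMT1-only peaks were a median of 10225 bp from the nearest DAXX centre (quartiles 2283 and 27020 bp). Just inside the overlap limit the farthest shared pair had centres 145 bp apart, and just outside it the nearest DNMT1-only peak was 146 bp from a DAXX centre. There were 29 DNMT1-only peaks within 300 bp, 70 (17.9%) within 1 kb and 192 (49.0%, 43.9 to 54.0%) within 10 kb of a DAXX centre. No share of the genome at these distances is given beside them, so the counts alone do not show nearness to DAXX. The 70 within 1 kb held AP-1 in 20.0% (11.4 to 31.3%) and the other 322 in 18.0% (14.0 to 22.7%), with overlapping intervals. A WT DNMT1 peak lay at 40.0% (28.5 to 52.4%) of the 70 and 28.0% (23.1 to 33.2%) of the 322. One DNMT1-only peak lay on chromosome Y, where the DAXX list has 0 peaks.

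**Figure D2:**
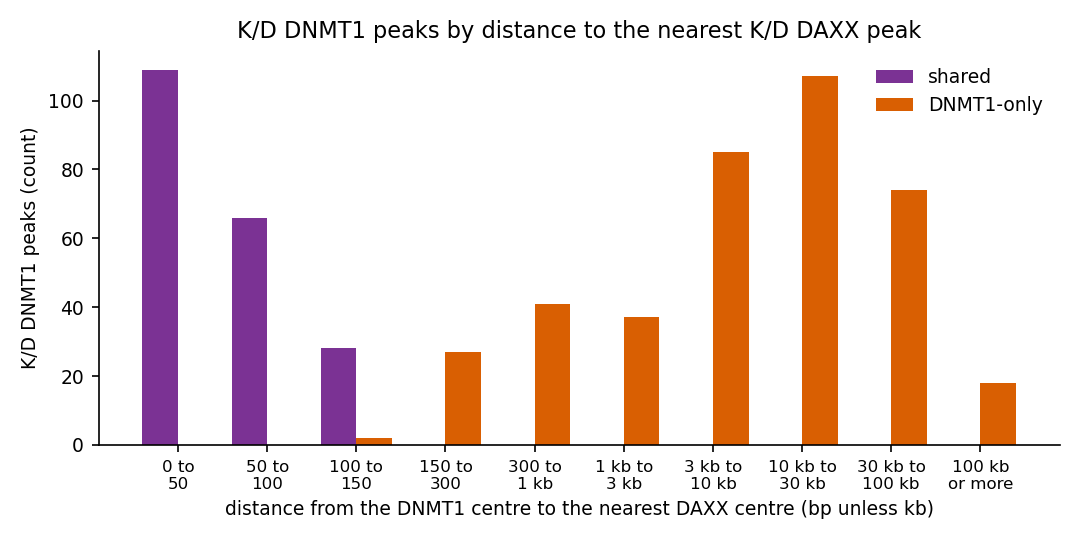
Number of K/D DNMT1 peaks (y axis) by distance from the DNMT1 centre to the nearest K/D DAXX centre (x axis, bp or kb), for shared peaks and for DNMT1-only peaks. The shared peaks fill the first 3 classes with 109, 66 and 28 peaks, and the DNMT1-only peaks are most numerous between 10 and 30 kb, with 107.

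Most shared and most DNMT1-only peaks lay in introns or intergenic sequence. A peak was put in a promoter when its centre lay between 1000 bp upstream and 100 bp downstream of a transcription start site (TSS) of a protein-coding gene, otherwise in an exon, an intron or intergenic sequence. Among shared peaks 22 (10.8%) were in promoters, 8 in exons, 93 (45.8%) in introns and 80 (39.4%) in intergenic sequence. Among DNMT1-only peaks 28 (7.14%) were in promoters, 9 in exons, 195 (49.7%) in introns and 160 (40.8%) in intergenic sequence. The promoter share was 3.69 percentage points higher in shared peaks, with a Newcombe 95% interval of -0.961 to 9.16 points that includes 0. DAXX-only peaks had 3034 in promoters, 7.11%, and shared peaks exceeded them by 3.73 points (0.148 to 8.76). When a promoter was widened to 2500 bp on either side of a TSS, the difference from DNMT1-only peaks was 0.0352 points (-5.42 to 6.18). When peaks were called shared with centres within 100 bp of each other, it was 5.10 points (0.179 to 11.1), an interval that does not include 0.

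Inside promoters the shared peaks sat closer to the TSS. The DNMT1 centres of the 22 shared promoter peaks were a median of 30 bp from the nearest TSS (95% interval of the median 16 to 58 bp), and those of the 28 DNMT1-only promoter peaks 158.5 bp (70 to 303 bp). Within 100 bp of a TSS lay 18 of 22 shared peaks and 12 of 28 DNMT1-only peaks, a difference of 39.0 points (11.8 to 58.6). At DAXX centres the median was 44.5 bp in shared and 125 bp in DAXX-only promoter peaks, and 18 of 22 shared against 43.2% of 3034 DAXX-only peaks lay within 100 bp, a difference of 38.6 points (18.2 to 49.6). Shared promoter peaks were thus nearer to the start site than either kind of single-list peak.

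Some of these promoters serve a gene on each strand, a measure that had not been planned. Named genes on both strands had their promoter at 7 of 22 shared peaks (31.8%, 13.9 to 54.9%), against 2 of 28 DNMT1-only peaks (7.14%) and 220 of 3034 DAXX-only peaks (7.25%). The difference was 24.7 points (2.78 to 46.2) from DNMT1-only and 24.6 points (9.08 to 45.4) from DAXX-only promoter peaks. The 7 pairs were CNOT9 and USP37, ALKBH1 and SLIRP, FAM83H and IQANK1, PGAM1 and RRP12, ABHD17B and C9orf85, RNF121 and XNDC1N, and ARFRP1 and ZGPAT.

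**Figure D3:**
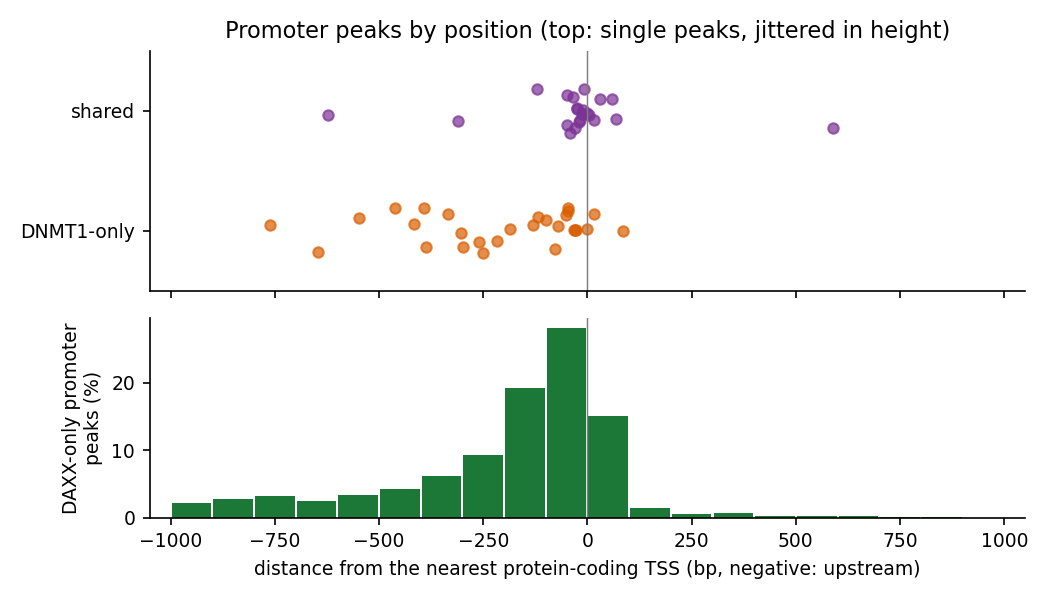
Position of promoter peaks relative to the nearest TSS (x axis, bp, negative upstream). The top panel shows each of the 22 shared and 28 DNMT1-only peaks as a point at its DNMT1 centre, jittered in height, and the bottom panel the percent of the 3034 DAXX-only promoter peaks per 100 bp; 18 shared points and 12 DNMT1-only points lie within 100 bp of a TSS.

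The shared promoter peaks named 29 genes over 22 peaks. In deposited order the first is MRPS28, a protein of the small subunit of the mitochondrial ribosome, with its DNMT1 centre at -10 bp from the TSS (negative is upstream). Next came CNOT9, a subunit of the CCR4-NOT deadenylase, which shares its promoter with the deubiquitinase gene USP37. The SCAP peak, in the promoter of the sterol sensor that escorts SREBP proteins, had both centres at the same base, -29 bp from the TSS. The others with a known role in RNA or translation were SLIRP, RBM8A (exon junction complex), CNOT2 (CCR4-NOT), RRP12 (ribosome assembly) and ZFR (RNA binding). Mitochondrial or metabolic genes were PARL, a rhomboid protease of the inner membrane, and PGAM1 of glycolysis. Genes of the genome and nucleus were HUS1 (the checkpoint clamp), ALKBH1 (nucleic acid demethylation), ZHX1 (a homeobox repressor), SMYD5, SUN1 (inner nuclear membrane) and HIKESHI (nuclear import of HSP70 proteins). OTUD6B, a deubiquitinase, RNF121, ABHD17B, C9orf85, ARFRP1, ZGPAT, FAM83H, IQANK1, XNDC1N, C5orf52, SMIM31 and CNPY2 complete the named genes. No list of such functions was compared, so the grouping is a description.

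The first 15 DNMT1-only promoter peaks included those of SYBU (axonal transport), GIPR (an incretin receptor), FUZ (cilium formation), SRFBP1, PPP2R5A (a regulatory subunit of protein phosphatase 2A), TM4SF1 (a membrane protein of migrating cells), METAP1 (removal of the first methionine), COA1, DNAJC14, RSPH14, CBX3 with HNRNPA2B1 (a heterochromatin protein and an RNA-binding protein that share a promoter), ATOSA, ATL2 (shaping of the endoplasmic reticulum) and GNAI2 (a G protein subunit). Of the 15 peaks 4 overlapped a WT DAXX peak and 9 a WT DNMT1 peak. Over all promoter peaks 17 of 22 shared and 4 of 28 DNMT1-only peaks lay on a WT DAXX peak, and 11 of 22 and 11 of 28 on a WT DNMT1 peak. The contrast for WT DAXX is largely set by the sharing rule, since shared peaks lie on a K/D DAXX peak by definition.

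AP-1 was less frequent in promoter peaks than outside promoters. It was found in 1 of 22 shared, 1 of 28 DNMT1-only and 344 of 3034 DAXX-only promoter peaks (11.3%). Outside promoters it was in 35.4%, 19.5% and 37.2% of these sets, and 3.07% of all windows in the genome held it. The letters AAGATGG, the core of the YY1 motif, were found in 8 of 22 shared promoter peaks (36.4%) and 2 of 28 DNMT1-only ones (7.14%), a difference of 29.2 points (6.49 to 50.5). At DAXX centres they were in 6 of 22 shared and 110 of 3034 DAXX-only promoter peaks (3.63%), a difference of 23.6 points (9.51 to 44.5). Outside promoters 4 of 181 shared and 10 of 364 DNMT1-only peaks had them, and 4.05% of all windows of this size in the genome. YY1 is a zinc finger factor whose sites often lie just downstream of the TSS of housekeeping genes. The letters were searched after the shared promoter peaks had been looked at, so the count describes these peaks only.

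The sites at 7 of the shared promoters are given in the direction in which the capitals read AAGATGG.
PARL (chr3:183602620-183602648, minus strand): cagaggttgggAAGATGGcgtggcgaggc
ALKBH1 and SLIRP (chr14:78174324-78174352, minus strand): gcgagatggggAAGATGGcagcggccgtg
RBM8A (chr1:145507460-145507488, plus strand): gcgatctgttcAAGATGGccacagaaaca
CNOT2 (chr12:70637215-70637243, minus strand): cccgcggatccAAGATGGcgacgtatcca
SMYD5 (chr2:73441381-73441409, plus strand): gaggcgcgcccAAGATGGcggcctccatg
RNF121 and XNDC1N (chr11:71639589-71639617, plus strand): cctaccgaggcAAGATGGcaggtgctgca
CNPY2 (chr12:56710161-56710189, minus strand): agttgctcacaAAGATGGgtccggtgctg
In 6 of these 7 the base after the capitals is c, and at CNPY2 it is g. The CNPY2 site lies -403 bp and the RBM8A site -135 bp from the nearest TSS. The SMYD5 site is at 0 bp, the PARL site at 9 bp and the CNOT2 site at 16 bp. The site of ALKBH1 and SLIRP lies 28 bp from the ALKBH1 TSS. That of RNF121 and XNDC1N lies 37 bp from the XNDC1N TSS.

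The letters CCGGAA, the core of ETS family motifs, were also counted after the 6-mers of these promoters had been seen. They were in 10 of 22 shared and 4 of 28 DNMT1-only promoter peaks, 31.2 points apart (5.88 to 52.8). At DAXX centres 8 of 22 shared and 603 of 3034 DAXX-only promoter peaks had them, 16.5 points apart with an interval of -0.205 to 37.2 that includes 0. The longer ETS motif that had been planned (ACCGGAAA or ACCGGAAG) was in 2 of 22 shared and 0 of 28 DNMT1-only promoter peaks. The difference was 9.09 points (-4.64 to 27.8). At DAXX centres 1 of 22 shared and 110 of 3034 DAXX-only promoter peaks had this motif, 0.920 points apart (-2.89 to 18.2). Both intervals of the planned motif include 0. SP1 boxes (GGGCGG) were at 9 of 22 and 7 of 28, 15.9 points apart (-9.56 to 39.7).

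AP-1 was more frequent in shared than in DNMT1-only peaks, while shared and DAXX-only peaks had it at similar shares. Within 100 bp of the DNMT1 centre 65 of 203 shared peaks (32.0%, 25.7 to 38.9%) and 72 of 392 DNMT1-only peaks (18.4%, 14.7 to 22.6%) had the motif. The difference was 13.7 points (6.34 to 21.2). It was 6.84 points (-3.13 to 17.2) in the first 50% of the DNMT1 list and 6.76 points (0.964 to 13.2) within 50 bp of the centre. At DAXX centres 73 of 203 shared peaks (36.0%) and 15088 of 42673 DAXX-only peaks (35.4%) had it, a difference of 0.603 points (-5.70 to 7.42). Every set stood well above its surroundings, where the windows 2 kb to either side held AP-1 in 3.69% (shared, DNMT1 centres), 3.57% (DNMT1-only), 3.45% (shared, DAXX centres) and 3.30% (DAXX-only), against 3.07% of all windows in the genome. The contrast was found where WT cells had no DNMT1 peak, with AP-1 in 45 of 129 shared (34.9%) and 36 of 274 DNMT1-only peaks (13.1%), 21.7 points apart (12.8 to 31.0). Where WT cells had one, 20 of 74 shared (27.0%) and 36 of 118 DNMT1-only peaks (30.5%) held AP-1, a difference of -3.48 points (-15.9 to 9.93). Outside promoters the contrast was 35.4% in 181 shared and 19.5% in 364 DNMT1-only peaks, 15.9 points apart (7.94 to 24.0).

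The half-site of nuclear receptors, which binds receptors for hormones and orphan receptors, went the other way on the DAXX side. At DAXX centres it was in 31 of 203 shared peaks (15.3%) and in 10942 of 42673 DAXX-only peaks (25.6%), so shared peaks had 10.4 points less (difference -10.4, interval -14.7 to -4.77). At DNMT1 centres it was in 20 of 203 shared (9.85%) and 7 of 392 DNMT1-only peaks (1.79%), 8.07 points apart (4.21 to 13.0). The DNMT1-only share lay below the 10.7% of the windows 2 kb away and the 8.79% of the genome. Within the first of the 10 parts of the DAXX list 18 of 55 shared and 1601 of 4232 DAXX-only peaks had it, and the difference of -5.10 points had an interval of -16.1 to 8.15 that includes 0.

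**Figure D4:**
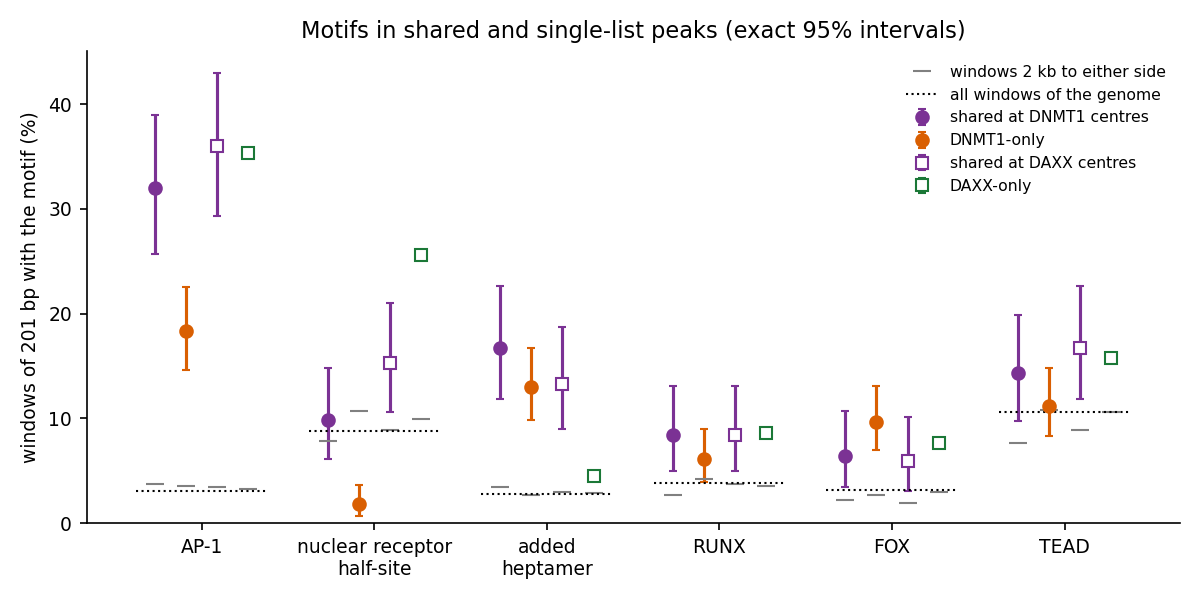
Percent of windows, 100 bp to either side of a peak centre, with each motif (y axis) for 6 motifs (x axis), the added heptamer being ACAGTCA; circles are windows on DNMT1 centres, squares windows on DAXX centres, bars exact 95% intervals, grey dashes the windows 2 kb away and dotted lines all windows of the genome. AP-1 is at 32.0% in shared and 18.4% in DNMT1-only peaks, and the half-site is at 1.79% in DNMT1-only peaks, below its dotted line at 8.79%.

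Of the 6-mers, counted with their reverse complements, those that rose most over the windows 2 kb away were AP-1 parts in the shared peaks. GAGTCA was in 41.4% of shared windows at DNMT1 centres and 9.61% of their surroundings, GACTCA in 37.4% and 8.62%, and AGTCAT in 37.4% and 11.1%. In DNMT1-only peaks the first was ACAGTC, in 24.0% against 8.04% of the surroundings, before GAGTCA with 24.7% against 9.31% and TAAACA, part of the forkhead motif, with 30.9% against 16.2%. In DAXX-only peaks GAGTCA (41.9% against 8.72%) and GACTCA (39.7% against 8.44%) were followed by AGGTCA (35.5% against 13.9%), part of the nuclear receptor half-site. No p-value goes with these shares, since the 6-mers were picked by their size.

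ACAGTC was extended to the heptamer ACAGTCA, which was less frequent in DAXX-only than in shared peaks. The 6-mer had been picked for its rise in DNMT1-only windows, so the share of the heptamer in DNMT1 peaks is not independent of that choice. It was in 34 of 203 shared peaks (16.7%) and 51 of 392 DNMT1-only peaks (13.0%) at DNMT1 centres, a difference of 3.74 points (-2.09 to 10.2). At DAXX centres it was in 27 of 203 shared peaks (13.3%) and 1934 of 42673 DAXX-only peaks (4.53%), a difference of 8.77 points (4.77 to 14.1). The DAXX-only share lay above the 2.88% of the windows 2 kb away and the 2.83% of all windows in the genome. Its share followed the history of the peak in WT cells. Of peaks also called for DNMT1 in WT cells 19 of 74 shared (25.7%) and 34 of 118 DNMT1-only (28.8%) had it, and of peaks not called there 15 of 129 shared (11.6%) and 17 of 274 DNMT1-only (6.20%).

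The place of each motif between the centres of a pair was measured after the shares had been seen. Of 33 shared pairs with a half-site, the site was nearer to the DAXX centre in 28 and nearer to the DNMT1 centre in 5. Of 36 pairs with ACAGTCA, it was nearer to the DNMT1 centre in 26 and nearer to the DAXX centre in 10. Of 77 pairs with AP-1, it was nearer to DAXX in 43, nearer to DNMT1 in 33 and equally far in 1. The share nearer to DAXX was 84.8% (68.1 to 94.9%) for the half-site, 27.8% (14.2 to 45.2%) for ACAGTCA and 55.8% (44.1 to 67.2%) for AP-1. The median distance of the half-site was 29 bp from the DAXX and 81 bp from the DNMT1 centre, and that of the heptamer 74.5 bp and 44 bp.

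Other motifs showed smaller contrasts. RUNX (AACCACA) was in 8.37% of shared and 6.12% of DNMT1-only peaks, FOX (TGTTTAC) in 6.40% and 9.69%, TEAD (GGAATG) in 14.3% and 11.2%, and the letters AGATAA of GATA factors in 9.85% and 12.2%. The intervals of these 4 differences include 0. The CTCF core was in 3 shared (1.48%) and 13 DNMT1-only peaks (3.32%), a difference of -1.84 points (-4.31 to 1.26) whose interval includes 0. It stood above the windows 2 kb away in each set, with 0.246% there for shared and 0.128% for DNMT1-only peaks. Of DAXX-only peaks 0.958% had the CTCF core, against 0.0914% of the windows 2 kb away. The DNMT1-only peaks with it were then looked up in the WT lists. All 13 were among the 244 DNMT1-only peaks with no WT DAXX and no WT DNMT1 peak.

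One group of DNMT1-only peaks had the same longer sequence within 100 bp of the centre. Such windows are wider than the peaks, and the TANK copy below lies outside its peak. Of all 14-mers in the DNMT1 windows, 1 of the 2 overlapping ones found in most peaks was CACTGACTCACCCA, an AP-1 motif with fixed neighbours, in 8 DNMT1-only peaks and 0 shared peaks. Its 802 copies in hg19 lay within 100 bp of a peak centre 8 times in the K/D DNMT1, 25 times in the K/D DAXX, 17 times in the WT DNMT1 and 55 times in the WT DAXX list. Of the copies at these peaks 7 are shown with 8 bases on either side, the 14-mer in capitals.
intron of TANK (chr2:162085209-162085238, plus strand): cattaactCACTGACTCACCCAgagcaacc
intron of MED27 (chr9:134861641-134861670, plus strand): ccatggctCACTGACTCACCCAgagcaacc
intron of ABHD12 (chr20:25353499-25353528, plus strand): cactcactCACTGACTCACCCAgagcaacc
intron of NHSL1 (chr6:138786334-138786363, plus strand): accacactCACTGACTCACCCAgaacaact
near DACT1 (chr14:59379712-59379741, plus strand): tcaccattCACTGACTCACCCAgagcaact
near UBE2U (chr1:64650110-64650139, minus strand): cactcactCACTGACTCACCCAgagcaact
intron of DSTYK (chr1:205120326-205120355, minus strand): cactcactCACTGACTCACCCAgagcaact
The bases on the 3′ side of the 14-mer are alike in these lines as well. This group was found by counting all 14-mers and was chosen after its values were seen. Of the 8 peaks 5 were also called for DNMT1 in WT cells and 0 for DAXX, and their nearest K/D DAXX centre was between 402 bp (ABHD12) and 53755 bp (NHSL1) away. How uniquely reads map to such copies was not measured.

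Shared windows were richer in G and C than DNMT1-only windows. The median GC content was 41.8% (40.8 to 42.8%) in shared and 38.8% (37.8 to 39.8%) in DNMT1-only peaks, a difference of 2.99 points (1.58 to 4.39). In the first 50% of the DNMT1 list it was 1.49 points (-0.301 to 3.72). At DAXX centres it was 42.3% in shared and 44.3% in DAXX-only peaks. CpG dinucleotides, the substrate of DNMT1, were few in all sets. The median was 2 CpG per window in shared, 1 in DNMT1-only and 2 in DAXX-only peaks, and 37 of 203 shared (18.2%) and 106 of 392 DNMT1-only windows (27.0%) had 0, a difference of -8.81 points (-15.4 to -1.61).

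H3(Lys4) regions of K/D cells covered more of the shared peaks. Of 203 shared peaks 59 (29.1%) and of 392 DNMT1-only peaks 65 (16.6%) overlapped a region, 12.5 points apart (5.43 to 19.9), and 7.78 points apart (-1.05 to 17.2) in the first 50% of the DNMT1 list. A difference was also found outside promoters, with 56 of 181 shared (30.9%) and 61 of 364 DNMT1-only peaks (16.8%), 14.2 points apart (6.64 to 22.1), and in intergenic sequence, with 28 of 80 shared and 23 of 160 DNMT1-only peaks, 20.6 points apart (9.20 to 32.5). In introns it was 10.1 points (-0.189 to 21.1). In promoters 3 of 22 shared and 4 of 28 DNMT1-only peaks lay in a region, against 34.5% of the 3034 DAXX-only promoter peaks. At DAXX centres shared (29.6%) and DAXX-only peaks (28.7%) had similar shares over all locations, 0.892 points apart (-4.97 to 7.52). With the WT regions the contrast was smaller, 25.6% of shared and 23.5% of DNMT1-only peaks, 2.15 points apart (-4.93 to 9.67). Whether the K/D and WT contrasts differ was not tested. The K/D H3(Lys4) list was called against the same input as both K/D lists.

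The same places were then looked up in the WT lists. A WT DAXX peak lay at 151 of 203 shared peaks (74.4%, 67.8 to 80.2%) and at 74 of 392 DNMT1-only peaks (18.9%, 15.1 to 23.1%), 55.5 points apart (47.9 to 62.1). Shared peaks lie on a K/D DAXX peak by definition, and 67.4% of DAXX-only peaks lay on a WT DAXX peak. Such a gap is thus largely set by the sharing rule. A WT DNMT1 peak lay at 74 of 203 shared (36.5%) and 118 of 392 DNMT1-only peaks (30.1%), 6.35 points apart with an interval of -1.53 to 14.4 that includes 0. In all 192 peaks of the K/D DNMT1 list met one of the WT DNMT1 list, which is 32.3% of the K/D list and 8.59% of the WT list.

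Taken by both WT lists at once, 63 shared peaks (31.0%) had been DAXX and DNMT1 peaks, 88 (43.3%) DAXX peaks only, 11 DNMT1 peaks only and 41 (20.2%) neither. Of the DNMT1-only peaks 44 (11.2%) had been both, 30 (7.65%) DAXX only, 74 (18.9%) DNMT1 only and 244 (62.2%) neither. AP-1 was in 27.0%, 38.6%, 27.3% and 26.8% of these 4 shared groups. Their intervals overlapped, at 16.6 to 39.7%, 28.4 to 49.6%, 6.02 to 61.0% (11 peaks) and 14.2 to 42.9%. Among the DNMT1-only groups AP-1 was in 25.0%, 30.0% and 33.8% of those on any WT peak. In the 244 on none it was at 11.1% (7.42 to 15.7%). Of DAXX-only peaks 67.4% were on a WT DAXX peak and 1.42% on a WT DNMT1 peak, against 76.8% and 35.5% of shared DAXX peaks.

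The upper end of the DNMT1 list consisted mainly of peaks that WT cells had too. In the first of its 5 parts 89 of 119 peaks (74.8%) and in the last 14 of 119 (11.8%) overlapped a WT DNMT1 peak. The first 10 shared peaks were all on WT DNMT1 peaks and 8 of them on WT DAXX peaks. They lay in introns of SIPA1L2, ADK (adenosine kinase), PRICKLE2 (planar cell polarity), TTC6, MAML2 (a Notch co-activator) and PRR12, in the promoters of MRPS28, CNOT9 with USP37 and SCAP, and 21.3 kb from the TSS of CDCP1, a membrane protein phosphorylated by Src kinases. Their DAXX partners stood at places 395 (SCAP), 781, 1197, 1732, 1753, 13390, 13473, 20346, 20454 and 31293 (PRICKLE2). These 10 peaks do not show how the places in the 2 lists are related over all shared pairs.

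Of the first 10 DNMT1-only peaks 9 were on WT DNMT1 and 6 on WT DAXX peaks. They were in introns of ARID5B (a DNA-binding cofactor), DSTYK, MAML3 (a second Notch co-activator), PTHLH (parathyroid hormone-related protein) and CTNNA3 (an alpha-catenin), and in intergenic sequence nearest to THEM4, FOS, MYLK4, ARHGAP12 and OXR1. The peak near FOS, the gene of an AP-1 subunit, lay 19.6 kb from its TSS and was the one without a WT DNMT1 peak. The nearest K/D DAXX centre was between 0.736 kb (PTHLH) and 66.0 kb (DSTYK) away. The first 5 DAXX-only peaks were 2 in NRP1 (a co-receptor for VEGF and semaphorins), and 1 each in CCN4 (a matrix protein), in ANXA11 (an annexin) and 4.31 kb from the TSS of PLAU (urokinase).

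Chromosome 10 stood out among DNMT1-only peaks. It held 74 of the 392 (18.9%, 15.1 to 23.1%), against 13 of 203 shared peaks (6.40%, 3.45 to 10.7%) and 4.66% of DAXX-only peaks. Of the 74, 25 lay between 75 and 80 Mb, where the K/D DNMT1 list had 29 peaks (4.87% of it), the WT DNMT1 list 10 (0.448%) and the K/D DAXX list 147 (0.343%). The interval of 3.29 to 6.93% for the K/D DNMT1 list lies above that of 0.215 to 0.822% for the WT DNMT1 list. Chromosome 10 was singled out after these values were seen. Copy number was not measured in these lists and its part was not tested. Without chromosome 10 the shared part of the DNMT1 list was 37.4% (33.2 to 41.8%). Chromosome 14, also chosen after its values were seen, held 9 shared (4.43%) and 31 DNMT1-only peaks (7.91%, 14 of them between 60 and 65 Mb), against 3.48% of DAXX-only peaks.

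**Figure D5:**
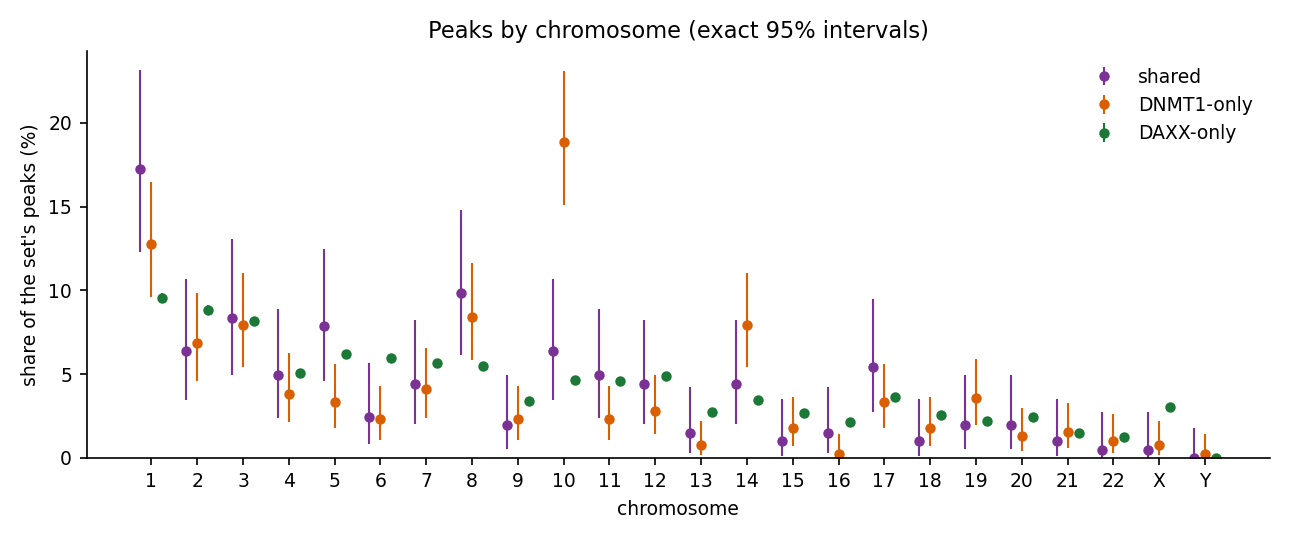
Percent of the peaks of each set (y axis) on each chromosome (x axis) for shared, DNMT1-only and DAXX-only peaks, with exact 95% intervals. The DNMT1-only set has 18.9% of its peaks on chromosome 10, where shared peaks have 6.40% and DAXX-only peaks 4.66%.

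DNMT1 peaks also came in small clusters. No protein-coding gene had more than 4 K/D DNMT1 peaks within 100 kb of a TSS. The genes with 4 were SIPA1L2, ARID5B, LRMDA and, around 1 group of peaks on chromosome 19, FOSB, ERCC1, POLR1G, PPM1N, PPP1R13L, RTN2 and VASP. At SIPA1L2 the 4 peaks lay within 13.6 kb, 2 of them were shared and all 4 were on WT DNMT1 peaks. At FOSB they lay within 27.7 kb, 1 was shared and 3 were on WT DNMT1 peaks. At ARID5B and LRMDA, both on chromosome 10, none of the 4 was shared, although 16 and 15 DAXX peaks lay within the same reach. On WT DNMT1 peaks lay 1 of the 4 at ARID5B and 0 at LRMDA. A further cluster of 4 peaks nearest to NR5A2 spanned 90.4 kb, with 1 shared and 0 on WT DNMT1 peaks.

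Genes with DNMT1 nearby were few. Of 19785 protein-coding genes 176 (0.89%) had a K/D DNMT1 peak centre within 10 kb of a TSS, 8273 (41.8%) a K/D DAXX peak, and 128 (0.647%) both. These percentages are the background for the gene lists below.

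Of 13 lists of genes, 10 had 0 members with a DNMT1 peak within 10 kb. These were MAPK feedback genes and EGFR ligands (17 genes), invasion and EMT genes (21), NF-kB and cytokine genes (19), YAP and TEAD targets (13), core autophagy genes (38), the DNA methylation machinery (16), DAXX partners and PML body genes (16), promoters methylated in prostate cancer (15), germline genes silenced by methylation (15) and androgen receptor and luminal genes (12). At a background of 0.89% a list of this size holds few or no such genes, so the zeros say little. DAXX was within 10 kb of 13 of 13 YAP and TEAD targets, 17 of 21 invasion genes, 15 of 19 NF-kB genes and 12 of 17 MAPK genes, against 41.8% of all genes. It was near 22 of 38 autophagy genes, 9 of 16 genes of the methylation machinery, 9 of 16 DAXX partners, 8 of 15 methylated promoters, 6 of 12 androgen receptor and luminal genes and 4 of 15 germline genes. The 8 methylated promoters include TBC1D9, to which the entered name MDR1 was matched and whose promoter may not be the one meant.

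Of the members of each list with a DAXX centre within 10 kb of a TSS, the one whose DAXX peak came first in its list is named here, so that a near DAXX peak is fixed by the choice. NRP1 had a DAXX centre 0.125 kb from a TSS and its nearest DNMT1 centre at 25.4 kb, and EGFR had DAXX at 1.59 kb and DNMT1 at 57.5 kb. For ATG2A, which supplies lipid to the growing autophagosome, the distances were 0.218 and 110.5 kb. For TBC1D9 they were 0.752 and 501.6 kb. This gene stands in the list of methylated promoters only because the entered name MDR1 was matched to it. MDR1 is also a name of ABCB1, which was not looked up. For SLC45A3, a luminal prostate gene, the distances were 1.12 and 492 kb. In IER3, IL1B, CCN1, ZBTB33, SETDB1, DDX4 and ETV1 the DAXX centre was between 0.042 kb (SETDB1) and 8.52 kb (DDX4) from a TSS and the DNMT1 centre at least 887 kb away (ETV1). PTHLH, named next, was the only 1 of these 13 genes that also had DNMT1 within 10 kb.

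The other 3 lists had 4 genes with DNMT1 within 10 kb. PTHLH, which drives bone resorption by metastatic tumour cells, had a DNMT1 centre 1.74 kb and a DAXX centre 2.48 kb from a TSS, at places 8 and 102 of their lists. DKK1, a Wnt inhibitor of the same list of 12 bone metastasis factors, had DAXX at 0.130 kb and DNMT1 at 8.84 kb. FOXP1, the forkhead gene among 19 corepressor, RUNX, ETS and FOX genes, had DAXX at 0.061 kb and DNMT1 at 9.07 kb. FOSB, 1 of 22 AP-1 and immediate early genes, had DNMT1 0.478 kb from a TSS and its nearest DAXX centre at 12.1 kb, in a shared pair of places 86 and 23566. The DNMT1 peaks within 10 kb of PTHLH, FOXP1 and FOSB were all DNMT1-only, as was that near DKK1.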

How the data were processed

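Peak positions and the score column were deposited by the authors as HOMER peak lists in BED form on hg19. Per the submitters' processing notes, CASAVA 1.8.2, Bowtie2 2.1.0 and HOMER 4.6 were used. Per the file headers, the DAXX and DNMT1 peaks were called at a false discovery rate of 0.001. They needed at least 4-fold more tags than input (Poisson p 0.0001) and than the surrounding 10000 bp. For the H3(Lys4) lists the headers give no false discovery rate, and 0 regions were removed by the comparison with the surrounding sequence. The library names in the headers carry an old and a new number, whose meaning they do not state. The deposited score was the same for every peak, so the place in the list served as rank. Within chromosomes the place followed the number in the peak name, with a median Spearman's rho of 0.848 in the K/D DNMT1 and 0.991 in the K/D DAXX list, so the rank is less sure for DNMT1.

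Overlaps of at least 1 bp, distances between centres, motifs and GC content within 100 bp of the centre, and distances to 55869 TSSs of 19785 protein-coding genes (GENCODE release 44 on GRCh37) were computed with Python 3.11.15, numpy 2.4.6, scipy 1.17.1 and pysam 0.24.0, and plotted with matplotlib 3.10.9. Surroundings were windows 2000 bp to either side. Shares have exact Clopper-Pearson and differences Newcombe 95% intervals. With 1 library per group no test between conditions was possible and no p-value is given. The steps were tested on simulated data.

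The members and lists were chosen with earlier results of these data known. Named were the first 10 shared, 10 DNMT1-only and 5 DAXX-only peaks, genes with a shared promoter peak, up to 15 with a DNMT1-only promoter peak, the genes with most DNMT1 peaks within 100 kb, and from each list the genes with DNMT1 within 10 kb and, of those with DAXX within 10 kb, the first by DAXX place. The CTCF consensus was corrected, and ACAGTCA, YY1, CCGGAA and the 14-mer added, after the data had been seen. Other overlap rules, windows, reaches and the first 50% of each list were tried, and, chosen after seeing the data, the results without chromosome 10 and outside promoters. One gene that this rule names is not reported here.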

Additional observations from a re-analysis of the deposited data

Results flagged for a closer look

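The lists hold peaks on contigs outside the chromosomes compared above. There were 5 such K/D DNMT1 peaks, 1 of them shared, and 18 such K/D DAXX peaks.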

How the results depend on the processing

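The shared part of the DNMT1 list was 29.4% with centres within 100 bp of each other, 20.7% with 50% of each peak in common, 25.4% with the first 50% of the DAXX list and 39.4% in the first 50% of the DNMT1 list. The shared part of the DAXX list was 0.408%, 0.287%, 0.704% and 0.273% under the same 4 settings. The settings of the overlap ask for more than the 1 bp of the main comparison. Cutting a list to its first 50% can only leave fewer partners for the peaks of the other list. The cause of the rises, to 39.4% and 0.704%, was not tested. The AP-1 share of shared minus DAXX-only peaks changed sign, to -3.83 points in the first 50% of the DAXX list, -1.73 points within 50 bp of the centre and -0.0119 points without chromosome 10, and all 4 intervals include 0. The difference in median GC was 1.49 points in the first 50% of the DNMT1 list, and the cause was not tested. With 50 kb in place of 10 kb 584 genes had a DNMT1 peak and 543 had both, and with 5 kb 76 had both. In all 42 alternatives were computed, of which 27 stayed inside the interval or within 1.5 times the count. No paired analysis was possible because each group has 1 library. K/D DNMT1 peaks held 13.3 tags on average, against a minimum of 9, and the part of this depth in the number of shared peaks was not tested.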
